A study of Mus musculus with 6 samples.

Results

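The complement and microglial phagocytosis genes are a set of 10 genes, *C1qa*, *C1qb*, *C1qc*, *C3*, *C4b*, *Trem2*, *Tyrobp*, *Aif1*, *Cd68* and *Itgam*. They were chosen by name for their roles, at a point where earlier results of these data were known. Of these 10, 8 were matched by symbol to the annotation of the array, out of 19505 genes measured, and *C3* and *Cd68* were not analysed here. Their levels were read from hippocampal RNA of 10-day-old pups, on Clariom S arrays with 1 colour, which give 1 log2 intensity per gene probe set (a transcript cluster). All 6 pups were *LAO1* KO on a C57BL/6Jcl background and are labelled male. *LAO1* encodes an L-amino acid oxidase of milk that releases hydrogen peroxide. By their labels the groups differ in the genotype of the nursing dam, with 3 pups on the milk of WT dams (named *LAO1* KO with WT milk) and 3 on that of *LAO1* KO dams (named *LAO1* KO with KO milk) after cross-fostering on the day of birth. The question of the comparison is whether the milk a pup receives alters gene expression in the infant hippocampus. Litters are not named in the sources used here, and whether pups of a group shared a dam is not known. The p-values therefore measure the spread between these 6 samples only.

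Complement is a cascade of secreted proteins that tags targets for removal. C1q, a molecule built from the chains of *C1qa*, *C1qb* and *C1qc*, binds the target and starts the classical pathway, C4 and C3 are then cleaved and deposited on its surface, and phagocytes recognise the deposited C3 through complement receptor 3, an integrin whose alpha chain is encoded by *Itgam*. In the developing brain microglia are the main makers of C1q, and this pathway is known for the removal of surplus synapses. *Trem2* is a receptor for lipids and apoptotic cells that signals through the adaptor encoded by *Tyrobp*, *Aif1* (IBA1) is an actin-binding protein of microglia, and *Cd68* encodes a membrane protein of phagocyte lysosomes.

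The labelled sex and the arrays were checked first. The mean log2 intensity of *Eif2s3y*, *Kdm5d* and *Uty*, all Y-linked, was between 9.97 and 10.45 in 3 arrays (WT milk replicates 1 and 3 and KO milk replicate 2) and between 3.26 and 3.56 in the other 3, which goes against the label of male for those 3. The paper's methods say that its neonates were of both sexes. The Y-linked signal was thus uneven between the milk groups. KO milk replicate 3 differed from each of the other arrays by 0.479 to 0.537 log2 units (root mean square over clusters), and those 5 differed among themselves by 0.321 to 0.407. The choroid plexus genes had a mean log2 intensity of 5.89 to 8.51 with KO milk and 7.50 to 8.46 with WT milk, and KO milk replicates 1 and 3 were the low arrays. For hippocampal neurons, 11 of 11 measured marker genes lay above the background level of 5.78, the 95th percentile of 1414 olfactory and vomeronasal receptor clusters, and for homeostatic microglia 12 of 12 did. Each member is therefore given below with every array, and the values without single arrays or with the Y-linked or choroid plexus signal in the fit follow in the closing section.

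None of the 8 measured members passed the test between the milk groups. Across all genes limma called 0 at an adjusted p under 0.05, a share of 0%, and among the members 0 of 8 passed (adjusted p = 0.9996 from limma for each). At a limma p under 0.05 before adjustment 0 members were higher and 0 were lower with KO milk, where 1.46% of all genes were higher and 1.7% were lower (3.16% in either direction). By the methods' t-test 0 members passed as well, beside 1.77% of all genes higher and 1.61% lower. The 8 log2 fold changes (above 0 where KO milk is higher) ran from -0.25 (*Aif1*) to 0.27 (*Tyrobp*), with 5 above 0 and 3 below 0. Their median was 0.05, and that of all genes was 0.0025. The groups overlapped for 8 of 8 members, whereas for 8.39% of all genes they did not (4.15% with KO milk higher and 4.25% with KO milk lower). Without WT milk replicate 1, 2 or 3 the groups of 1 member each, *Tyrobp*, *Aif1* and *C1qb* in this order, no longer overlapped (17.2%, 18.2% and 16.9% of all genes). Without KO milk replicate 1 or 2 this held for 0 members (16.5% and 21.6% of all genes) and without KO milk replicate 3 for *Tyrobp* and *Itgam* (17.9%). Within the arrays with high Y-linked signal it held for 4 members (63.1% of all genes) and within those with low signal for 3 (62%), with 3 arrays compared in each. The 95% intervals from limma reached 0.40 to 0.60 to each side on the log2 scale (median over all genes 0.45). The lowest bound was -0.84 for *Aif1*, a level up to 1.79-fold lower with KO milk, and the highest was 0.70 for *C4b*, up to 1.63-fold higher. A change within these bounds could not be told from none with 3 arrays a group, and a whole tissue extract does not tell fewer microglia from less RNA per cell.

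**Figure D1:**
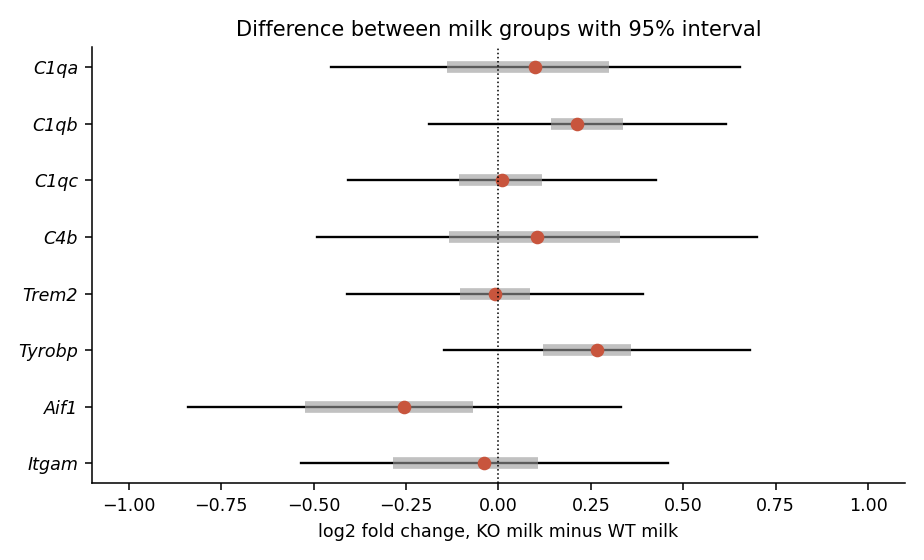
Difference in log2 intensity of each measured member between KO milk and WT milk (points, above 0 where KO milk is higher), with the 95% interval from limma (black lines) and the range of the value when each of the 6 arrays is left out in turn (grey bars). All 8 intervals include 0, and the points lie between -0.25 and 0.27.

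The 3 chains of C1q were measured by separate clusters. For *C1qa* the log2 intensity was 8.15, 8.31 and 8.76 with WT milk against 8.10, 8.43 and 8.98 with KO milk, here and below in the order of replicates 1, 2 and 3. The lowest and the highest array were both in the KO milk group, which enclosed the WT milk group. The log2 fold change of *C1qa* was 0.10 (standard error 0.25, 95% interval -0.45 to 0.65, unadjusted p = 0.699 from limma), less than the SD of 0.31 with WT milk and 0.44 with KO milk (n = 3 each). *C1qc* read 7.78, 7.77 and 8.10 with WT milk against 7.75, 7.80 and 8.13 with KO milk. Replicate 3 was the high array in both groups, as it was for *C1qa*, and the group means of *C1qc*, 7.88 ± 0.19 (SD, n = 3) and 7.89 ± 0.20 (SD, n = 3), lay 0.0092 apart (95% interval -0.41 to 0.43, unadjusted p = 0.962 from limma). *C1qb* read 6.74, 6.77 and 7.13 with WT milk against 6.98, 7.19 and 7.10 with KO milk. WT milk replicate 3 lay inside the range of the KO milk arrays and the other WT milk arrays lay below it. The log2 fold change of *C1qb* was 0.21 (standard error 0.18, 95% interval -0.19 to 0.61, unadjusted p = 0.267 from limma), with an exact two-sided permutation p = 0.3 where 3 arrays against 3 cannot go below 0.1.

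The 3 C1q genes are neighbours on chromosome 4 in the order *C1qb*, *C1qc*, *C1qa* in the RefSeq annotation of GRCm38.p6. The transcription factor PU.1, which microglia and other myeloid cells need, binds purine-rich sites around GAGGAA, and the members named here as microglial genes are shown with the 250 bases before their RefSeq start so that such words can be seen. Of the 8 measured members 5 had a promoter entry. Capitals mark GAGGAA or its reverse complement TTCCTC. The sequences are 5′ to 3′ on the strand of the gene, from RefSeq on GRCm38.p6.
C1qb (chr4:136886201-136886450, minus strand): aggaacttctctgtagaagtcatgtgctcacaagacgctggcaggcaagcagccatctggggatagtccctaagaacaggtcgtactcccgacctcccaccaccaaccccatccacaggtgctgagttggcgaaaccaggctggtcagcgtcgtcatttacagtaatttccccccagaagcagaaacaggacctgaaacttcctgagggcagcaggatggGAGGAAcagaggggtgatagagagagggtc
C1qc (chr4:136892915-136893164, minus strand): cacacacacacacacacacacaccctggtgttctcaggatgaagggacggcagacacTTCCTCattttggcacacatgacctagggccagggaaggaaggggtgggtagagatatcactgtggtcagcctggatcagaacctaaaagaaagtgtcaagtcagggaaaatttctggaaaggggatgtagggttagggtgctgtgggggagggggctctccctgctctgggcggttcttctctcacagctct
Trem2 (chr17:48346151-48346400, plus strand): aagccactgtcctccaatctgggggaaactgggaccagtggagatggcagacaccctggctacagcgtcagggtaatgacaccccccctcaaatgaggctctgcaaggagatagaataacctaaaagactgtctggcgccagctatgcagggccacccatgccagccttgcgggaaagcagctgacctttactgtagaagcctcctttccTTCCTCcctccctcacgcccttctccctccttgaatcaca
Aif1 (chr17:35176053-35176302, minus strand): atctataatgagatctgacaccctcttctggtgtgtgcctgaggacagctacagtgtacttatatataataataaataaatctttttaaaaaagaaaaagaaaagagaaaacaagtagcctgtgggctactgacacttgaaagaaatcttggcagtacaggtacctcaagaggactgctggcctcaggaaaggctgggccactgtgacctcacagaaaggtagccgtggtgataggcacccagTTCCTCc
Itgam (chr7:128062390-128062639, plus strand): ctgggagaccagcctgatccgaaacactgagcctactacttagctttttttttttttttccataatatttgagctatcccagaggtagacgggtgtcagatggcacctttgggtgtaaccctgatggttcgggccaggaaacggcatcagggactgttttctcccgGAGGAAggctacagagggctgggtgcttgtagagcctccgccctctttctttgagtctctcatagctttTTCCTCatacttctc
Each of the 5 windows holds the word at least once, and that of *Itgam* holds it on both strands. It begins 30 bases before the start of *C1qb*, 193 before that of *C1qc*, 40 before that of *Trem2*, 7 before that of *Aif1* and 84 and 15 before that of *Itgam*. Of all 32851 promoter windows of the same length, 23.3% hold it on either strand. The 7-letter word GAGGAAG, which contains it, is in 3 of the 5 windows and in 10.6% of all, and the 8-letter word GAGGAAGT is in that of *C1qc* and in 2.44% of all. A match is a description of the letters and shows no binding. *Spi1*, the gene of PU.1, had a log2 fold change of -0.14 (95% interval -0.53 to 0.25, unadjusted p = 0.443 from limma).

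*C4b* encodes complement component 4, which C1 cleaves in the classical pathway. It read 6.14, 6.88 and 6.78 with WT milk against 6.68, 6.26 and 7.19 with KO milk. Single arrays of both groups were low, WT milk replicate 1 and KO milk replicate 2, and the groups overlapped over most of their range. The log2 fold change of *C4b* was 0.10 (standard error 0.27, 95% interval -0.49 to 0.70), with the widest interval of the members. WT milk replicate 1 and KO milk replicate 2 were also the arrays with the highest choroid plexus signal (8.46 and 8.51), whose part in the level of *C4b* was not tested. With that signal in the fit the value for *C4b* was -0.26 (unadjusted p = 0.335 from limma). *C4b* has a near-identical copy, *C4a*, and the sources used here do not say how probes that match both were assigned, so the level is uncertain. The cluster named *C4a* lay below background, at 3.32 ± 0.22 (SD, n = 3) with WT milk against 3.30 ± 0.14 (SD, n = 3) with KO milk.

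*Itgam*, the alpha chain of complement receptor 3, read 7.59, 7.42 and 7.63 with WT milk against 7.30, 7.22 and 8.001 with KO milk. The WT milk arrays lay within 0.21 of each other, whereas the KO milk arrays spread to both sides of them. The means were 7.55 ± 0.11 (SD, n = 3) and 7.51 ± 0.43 (SD, n = 3), a log2 fold change of -0.04 (95% interval -0.53 to 0.46, unadjusted p = 0.868 from limma). Without KO milk replicate 3, which stood apart, it was -0.29 (unadjusted p = 0.122 from limma) and the groups of *Itgam* no longer overlapped. Its partner in the receptor, the beta chain *Itgb2*, lay below background in every array, at 4.13 ± 0.25 (SD, n = 3) with WT milk against 4.18 ± 0.04 (SD, n = 3) with KO milk, so that the receptor is followed here by its alpha chain alone. *Itgb2* is named here after its values were seen.

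*Trem2* read 6.39, 6.14 and 6.45 with WT milk against 6.12, 6.43 and 6.39 with KO milk. Its group means, 6.32 ± 0.17 (SD, n = 3) and 6.31 ± 0.17 (SD, n = 3), lay 0.0094 apart with WT milk higher, and the 95% interval of the difference was -0.41 to 0.39. *Tyrobp*, the adaptor that carries the signalling motif for TREM2, read 6.15, 5.68 and 6.08 with WT milk against 6.32, 6.26 and 6.14 with KO milk. WT milk replicate 2 lay below the background level of 5.78 and was the lowest of the 6, and KO milk replicate 3 lay just below WT milk replicate 1, so the groups overlapped by that pair alone. The log2 fold change of *Tyrobp* was 0.27 (standard error 0.19, 95% interval -0.15 to 0.68, unadjusted p = 0.182 from limma), the smallest p of the members, with an exact two-sided permutation p = 0.2. Without WT milk replicate 2 it was 0.12 (unadjusted p = 0.556 from limma).

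*Aif1* had the widest spread among the WT milk arrays. It read 8.46, 7.76 and 8.66 with WT milk against 7.84, 7.82 and 8.46 with KO milk. In each group some arrays lay near 7.8 and others near 8.5, WT milk replicates 1 and 3 and KO milk replicate 3 being high. The means were 8.29 ± 0.48 (SD, n = 3) and 8.04 ± 0.36 (SD, n = 3), a log2 fold change of -0.25 (standard error 0.26, 95% interval -0.84 to 0.33, unadjusted p = 0.358 from limma). Leaving out WT milk replicate 2 gave *Aif1* a value of -0.52 (unadjusted p = 0.0636 from limma) and leaving out WT milk replicate 3 one of -0.07. Within the 3 arrays with high Y-linked signal the difference for *Aif1* was -0.74 (KO milk replicate 2 against WT milk replicates 1 and 3), and within the 3 with low signal it was 0.39 (KO milk replicates 1 and 3 against WT milk replicate 2), without a test in either set.

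**Figure D2:**
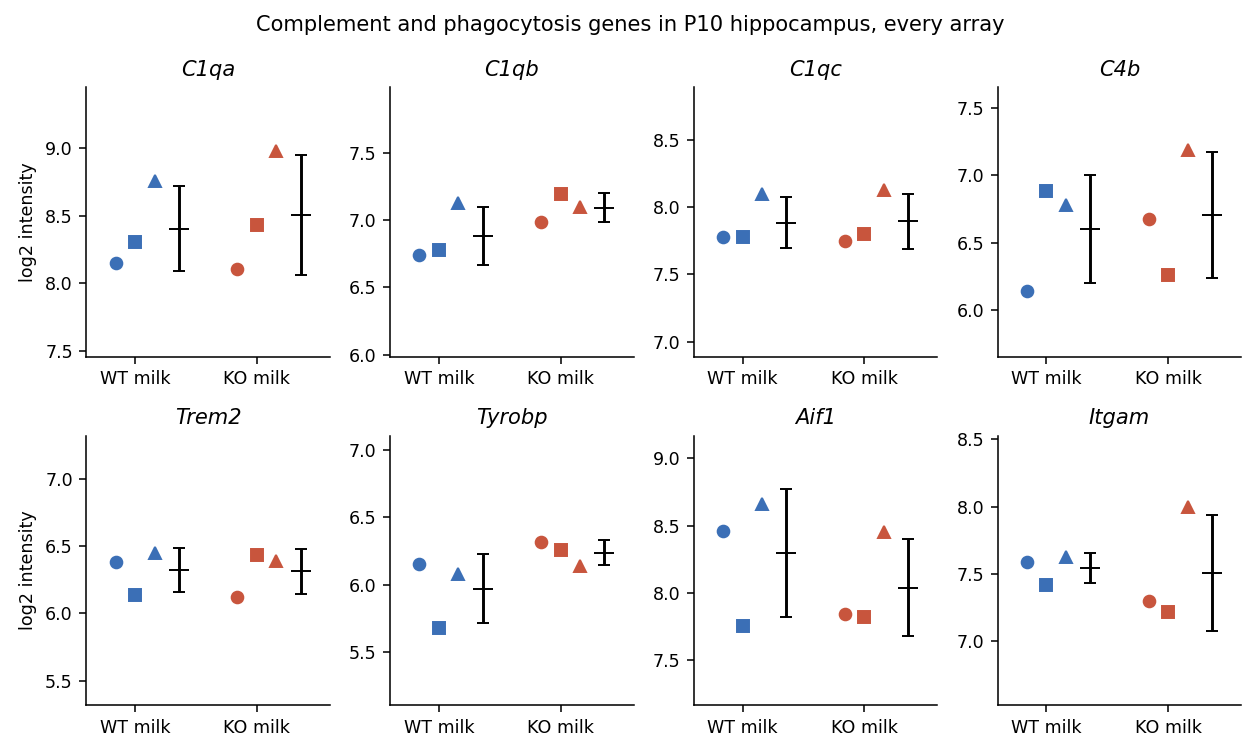
Log2 intensity of the 8 measured members in every array (circle, square and triangle for replicates 1, 2 and 3 of each group, WT milk in blue and KO milk in red), with the group mean and SD (n = 3) in black. Each panel spans 2 log2 units around the gene's mean, and the groups overlap in all 8 panels.

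Array by array, most members were high in replicate 3 of each milk group, and the sources used here give the replicate numbers no meaning. Against each gene's own mean over the 6 arrays, 7 of 8 members were above it in WT milk replicate 3 and 8 of 8 in KO milk replicate 3. In WT milk replicate 2 and KO milk replicate 1 it was 1 of 8 and 2 of 8. The medians of the 8 members were -0.03, -0.17 and 0.14 for WT milk against -0.17, -0.06 and 0.26 for KO milk, while the median over all genes stayed between -0.0040 and 0.012. *C1qc* followed the mean of the other members most closely over the 6 arrays (Pearson r = 0.977), and *Tyrobp* followed it least (r = 0.0073). These values describe the 6 arrays and have no test. Among 8765 other genes above background with a range of at least 0.5 over the arrays, the profiles most like the mean of the members were those of *Irf2bpl* (r = 0.999), *Kctd20*, *Mgll*, *Pcx*, *G6pd2* and *Rpl19* (r = 0.985) over the same 6 arrays. These were picked as the highest of 8765, and their log2 fold changes between the milk groups ran from 0.01 (*G6pd2*) to 0.15 (*Pcx*). None of the 6 is on the lists of microglial or complement genes. KO milk replicate 3 was also the array that stood apart from the rest, and the part of this in its high member values was not tested.

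**Figure D3:**
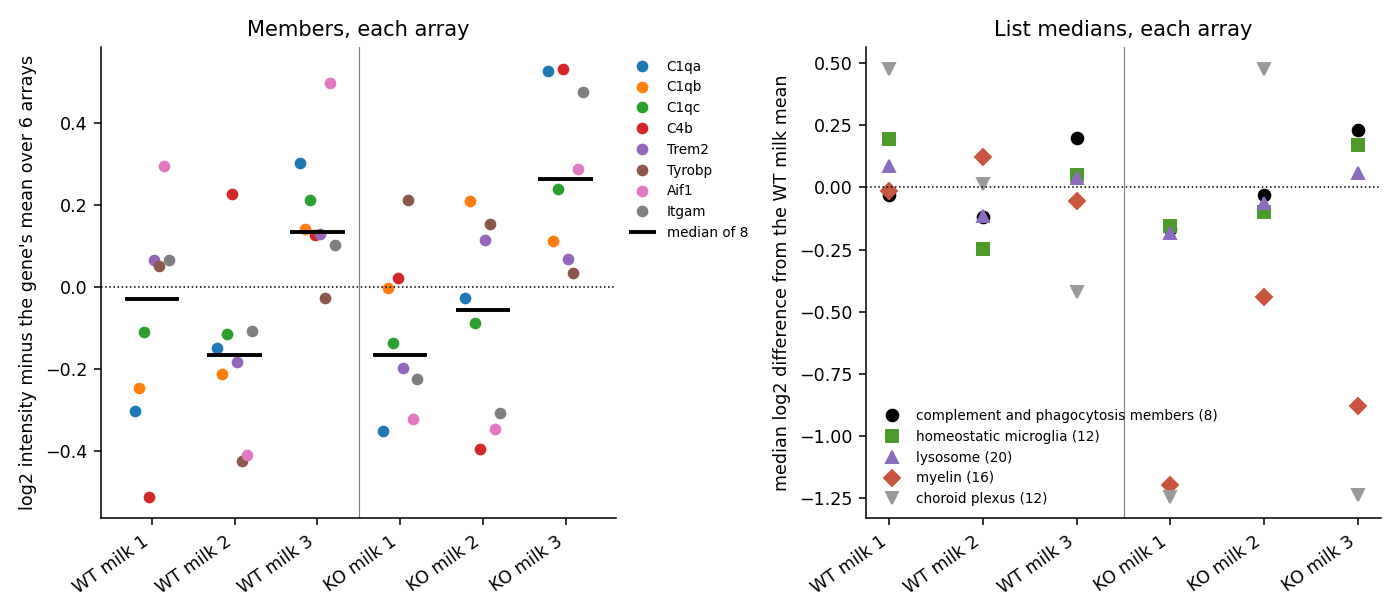
Left, log2 intensity of each measured member minus its own mean over the 6 arrays, with the median of the 8 members as a black bar. Right, median log2 difference from the mean of the WT milk arrays for the members and 4 other gene lists (number of genes in brackets), in which the myelin medians are lower in the 3 KO milk arrays than in the WT milk arrays whereas the member medians lie on both sides of 0 in both groups.

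The other genes of complement were taken from 3 lists. Of 24 listed components, proteases and recognition proteins 23 were measured, and 6 of these lay above background. At a limma p under 0.05 before adjustment 0 of the 23 were higher and 0 lower, beside 1.46% and 1.7% of all genes (median log2 fold change 0.03). The ones with the smallest p were *Cfb*, the protease of the alternative pathway, at -0.42 (unadjusted p = 0.144), *C7* of the membrane attack complex at 0.42 (unadjusted p = 0.178), *Mbl1* at 0.34 and *C8b* at -0.20, and all but *C7* lay below background. The genes of the C1 proteases, *C1ra*, *C1rb*, *C1s1* and *C1s2*, lay below background as well, with mean log2 intensities of 4.82, 3.99, 4.85 and 3.83 (named after their values were seen). Of 9 measured receptors for complement fragments 0 passed in either direction (median 0.05), beside 3.16% of all genes. *C5ar1*, a receptor for C5a, had a log2 fold change of 0.36 (unadjusted p = 0.103 from limma) at levels below background, *Lrp1* one of 0.28, *C3ar1*, the receptor for C3a, one of -0.20, and *Calr*, a C1q-binding chaperone, one of -0.14.

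Among the regulators of complement 1 of 21 measured genes was lower and 0 were higher with KO milk at a limma p under 0.05 before adjustment, beside 1.7% and 1.46% of all genes. The lower one was *Cd55*, decay-accelerating factor, a membrane protein that takes apart the enzyme that cleaves C3. *Cd55* read 9.07, 8.78 and 9.19 with WT milk against 8.27, 8.64 and 8.27 with KO milk. Every KO milk array lay below every WT milk array. Its log2 fold change was -0.62 (standard error 0.19, 95% interval -1.04 to -0.19, unadjusted p = 0.0086, with adjusted p = 0.9996 in limma), a level 1.53-fold higher with WT milk, and it did not pass after adjustment over all clusters. The value of *Cd55* kept an unadjusted p under 0.05 without each of the 6 arrays in turn and was -0.48 (unadjusted p = 0.0577 from limma) with the choroid plexus signal in the fit. Its copy *Cd55b* had a log2 fold change of -0.39 (unadjusted p = 0.145 from limma) with overlapping groups, and probes that match both copies could be shared. *C4bp*, below background, was at 0.35 and *Csmd1*, a neuronal complement inhibitor, at 0.23, and the median of the list was -0.03. In this list 1 gene, *Csmd1*, had groups that did not overlap with KO milk higher and 1, *Cd55*, with KO milk lower. The shares of all genes were 4.15% and 4.25%.

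Of 29 measured receptors and bridging molecules of phagocytosis 1 was higher and 0 were lower at a limma p under 0.05 before adjustment, beside 1.46% and 1.7% of all genes, with a median log2 fold change of 0.04. *Mfge8*, a secreted protein that bridges phosphatidylserine on dying cells to integrins of the phagocyte and that astrocytes also make, read 11.99, 11.70 and 12.14 with WT milk against 12.27, 12.23 and 13.06 with KO milk. The groups did not overlap, and KO milk replicate 3 was far above the other 5. The log2 fold change of *Mfge8* was 0.58 (standard error 0.24, unadjusted p = 0.0377, with adjusted p = 0.9996 in limma), and 0.31 (unadjusted p = 0.134 from limma) without KO milk replicate 3. It also lost an unadjusted p under 0.05 without WT milk replicate 1 (0.60, unadjusted p = 0.0664 from limma) and without WT milk replicate 2 (0.45, unadjusted p = 0.133 from limma). With the choroid plexus signal in the fit *Mfge8* was at 0.36 (unadjusted p = 0.209 from limma), and it did not pass with the Y-linked signal, with array weights (unadjusted p = 0.0661 and 0.0673 from limma) or by the methods' t-test either. *Mertk*, a receptor kinase for dying cells, read 8.45, 8.53 and 8.59 with WT milk against 8.81, 8.93 and 8.67 with KO milk. The groups did not overlap either, and the log2 fold change of *Mertk* was 0.28 (95% interval -0.09 to 0.65, unadjusted p = 0.127 from limma). Of the 29 genes, 2 had groups that did not overlap with KO milk higher and 0 with KO milk lower, beside 4.15% and 4.25% of all genes. *Fcer1g*, the signalling chain of Fc receptors, was at -0.32 and the integrin chain *Itgav* at -0.25.

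Downstream of TREM2 and other receptors that signal through tyrosine motifs (ITAM), 20 genes were measured, of which 12 lay above background. Of these 20, 1 was higher and 0 were lower at a limma p under 0.05 before adjustment (median -0.02), beside 1.46% and 1.7% of all genes. The higher one was the phosphatase gene *Ptpn6*, at 3.31 ± 0.23 (SD, n = 3) with WT milk against 3.80 ± 0.23 (SD, n = 3) with KO milk, below background in every array, with a log2 fold change of 0.49 (unadjusted p = 0.0311, with adjusted p = 0.9996 in limma). Without KO milk replicate 3 and without WT milk replicate 1 the value of *Ptpn6* was 0.36 each (unadjusted p = 0.0889 and 0.120 from limma). *Ptpn6* did not pass with the choroid plexus signal (0.39, unadjusted p = 0.129), the Y-linked signal (unadjusted p = 0.0725) or array weights (0.35, unadjusted p = 0.0719 from limma), nor by the methods' t-test. *Syk*, the kinase that binds the TYROBP motif, read 6.32, 7.48 and 7.21 with WT milk against 7.50, 7.52 and 7.48 with KO milk. The groups of *Syk* did not overlap, but WT milk replicate 2 and KO milk replicate 3 were equal after rounding, and WT milk replicate 1 was far below the rest. The log2 fold change of *Syk* was 0.50 (standard error 0.27, unadjusted p = 0.0913 from limma). *Btk*, below background by its mean, was at -0.55 (unadjusted p = 0.0733 from limma) and the adaptor *Grb2* at -0.24. In this list 2 genes had groups that did not overlap with KO milk higher and 2, *Grb2* among them, with KO milk lower. The shares of all genes were 4.15% and 4.25%. Of 20 measured lysosomal genes 0 passed in either direction, and 9 were above 0 and 11 below 0 (median -0.05). Those with the smallest p were the cathepsins *Ctsc* (-0.45), *Ctsl* (-0.40) and *Ctsh* (-0.25) and the membrane protein *Lamp2* (-0.37). Among the 20 lysosomal genes the groups of 1, *Ctsl*, did not overlap with KO milk lower, and those of 0 with KO milk higher. The shares of all genes were again 4.25% and 4.15%.

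**Figure D4:**
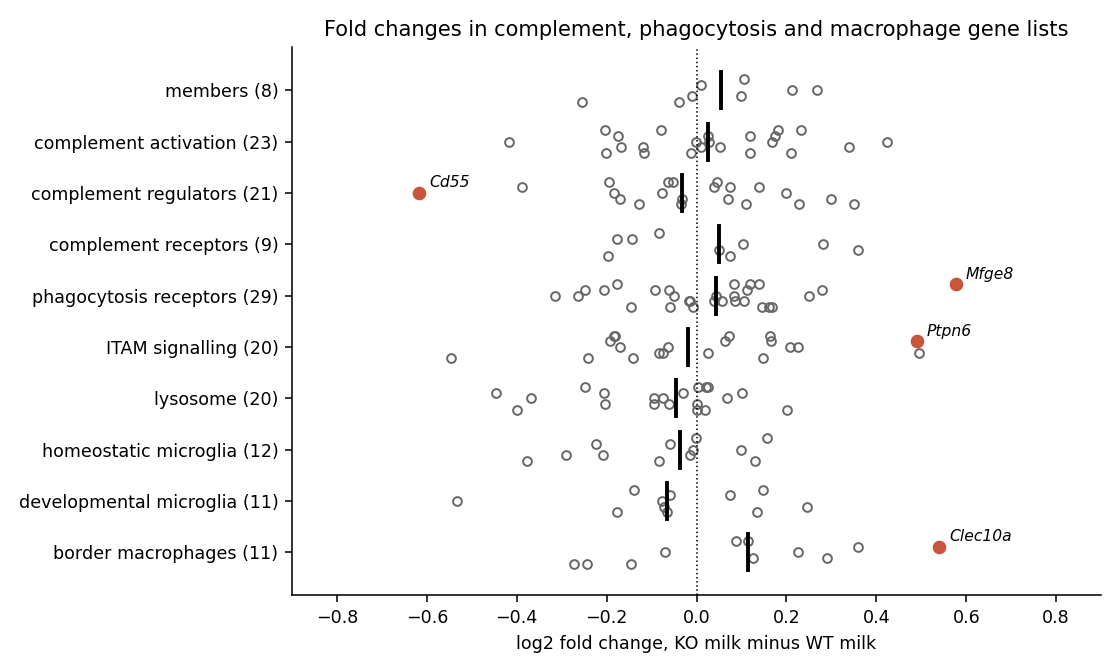
Difference in log2 intensity between KO milk and WT milk (above 0 where KO milk is higher) of each measured gene in the members and 9 other lists (number of genes in brackets), with the list median as a black bar. Filled red points are the 4 genes with a limma p under 0.05 before adjustment, *Cd55*, *Mfge8*, *Ptpn6* and *Clec10a*, and none of them passed after adjustment.

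The members were set beside the lists of the cells that could carry them. Of 12 measured genes of homeostatic microglia 0 were higher and 0 lower at a limma p under 0.05 before adjustment, beside 1.46% and 1.7% of all genes. Their median log2 fold change was -0.04 beside 0.05 for the members, a difference between lists that was not tested. *Tmem119* was at -0.29, *P2ry13* at -0.21 and *Gpr34* at -0.22. Over the 12 genes the log2 fold changes ran from -0.38 (*P2ry12*) to 0.16, with 3 above 0 and 9 below 0. *P2ry12*, the ADP receptor of resting microglia, read 13.01, 12.48 and 12.94 with WT milk against 12.67, 13.13 and 11.50 with KO milk. KO milk replicate 3, where the 8 members were above their means, was the lowest of the 6 arrays for *P2ry12*, *P2ry13* and *Gpr34*, although 9 of the 12 homeostatic genes were above their own mean there. A further list held genes of phagocytic microglia in early postnatal white matter and of disease-associated microglia. Of its 11 measured genes 7 lay above background and 0 passed (median -0.07), beside 3.16% of all genes in either direction. *Cd9*, which myelinating cells express too, was at -0.53 (unadjusted p = 0.0566 from limma), *Gpnmb* at 0.25, *Ccl3* at -0.18 and *Cst7*, below background, at 0.15.

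Macrophages of the brain borders and blood cells express several members as well. Of 11 measured border macrophage genes 4 lay above background, the list had a mean log2 intensity of 5.75 to 6.12 with WT milk and 5.91 to 6.06 with KO milk, and *Lyve1* and *Cd209f* were below background. *Clec10a*, 1 of the 11, was higher at a limma p under 0.05 before adjustment, beside 1.46% of all genes (log2 fold change 0.54, unadjusted p = 0.0464, adjusted p = 0.9996), the groups overlapped, and without WT milk replicate 1 or KO milk replicate 3 it was 0.37 each (unadjusted p = 0.180 and 0.157 from limma). It did not pass without WT milk replicate 3 (0.52, unadjusted p = 0.105 from limma) or KO milk replicate 1 (0.53, unadjusted p = 0.0892 from limma) either. With the choroid plexus signal in the fit *Clec10a* was at 0.28 (unadjusted p = 0.297), with the Y-linked signal at 0.33 (unadjusted p = 0.131) and with array weights at 0.44 (unadjusted p = 0.0620 from limma), and it did not pass by the methods' t-test. *Ms4a7* was at 0.36, *Lyve1* at 0.29 and *Cd209f* at 0.22. Of the 11 border macrophage genes 7 were above 0 and 4 below 0, with a median of 0.11. Of 13 measured leukocyte genes 1, *Ly6c2*, lay above background (log2 fold change -0.38, unadjusted p = 0.109 from limma), and *Retnlg*, *Cd3e* and *Plac8* were at -0.34, 0.31 and 0.21 below background. The erythroid genes *Alas2* and *Slc4a1* were at 0.09 and 0.05. The list of 10 meningeal genes had a median of -0.10 with 0 passed, beside 3.16% of all genes in either direction. Of these 10 genes 3 were above 0 and 7 below 0. Those with the smallest p were *Igf2* (-0.40), *Foxc1* (-0.20), *Ogn* (-0.61) and *Lum* (-0.34).

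On the same arrays 12 of 16 measured myelin genes were lower at a limma p under 0.05 before adjustment and 0 were higher (median -0.82), where 1.7% of all genes were lower, and *Cldn11*, *Tspan2*, *Gjc3* and *Mobp* were at -1.26, -1.28, -1.24 and -1.11. For the members the median was 0.05 on the same scale. Of 12 measured choroid plexus genes 2 were lower and 0 higher (median -0.74), led by *Ttr* (-5.30), *Clic6* (-1.41), *Otx2* (-0.96, below background by its mean) and *Kl* (-0.82). The median rested on single arrays, at -0.43, -1.26 and -0.46 when KO milk replicate 1, 2 or 3 was left out and at -0.44 when WT milk replicate 1 was, and it was 0.53 within the arrays with high Y-linked signal. For *Ttr* KO milk replicate 2 was the highest of all 6 arrays (18.18, against 17.10 to 17.74 with WT milk), and the low values were those of KO milk replicates 1 and 3 (10.76 and 7.69). Beside the same shares of all genes, 1 of 11 measured astrocyte genes was lower, *S100b* (-0.58, unadjusted p = 0.0456 from limma), with *Gja1*, *Aqp4* and *Fgfr3* at -0.37, -0.25 and 0.15. Of 11 measured genes of hippocampal neurons 1 was higher, *Prox1* (0.54, unadjusted p = 0.0149 from limma), with *Fibcd1*, *Snap25* and *Wfs1* at 0.24, -0.21 and -0.26. Neither *S100b* nor *Prox1* passed after adjustment (adjusted p = 0.9996 from limma for each). The groups of *S100b* overlapped. Those of *Prox1*, with KO milk higher, and of *Gja1*, with KO milk lower, did not, beside 4.15% and 4.25% of all genes. None of these genes was followed under the alternatives.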

How the data were processed

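Hippocampal RNA of 6 *LAO1* KO pups (3 with WT milk, 3 with KO milk) was measured on Clariom S mouse arrays. Per the labels, the authors used Transcriptome Analysis Console and RMA, which corrects background, normalizes arrays to each other and summarises probes, and the deposited values are log2 intensities of transcript clusters. Genome build and annotation version: not given in the sources used here. Scanner files were not used.

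Groups followed the mother genotype in the labels. Of 22206 clusters 19572 carried 1 gene symbol, 0 several and 2634 none in the platform annotation, all 19505 symbols were found in RefSeq GRCm38.p6, and the brightest cluster by mean stood for the 55 symbols with several. Of 10 members 8 were matched. In R 4.3.3, limma 3.58.1 fitted every cluster (lmFit, then eBayes) for the difference of KO milk from WT milk, two-sided and unfiltered, with Benjamini-Hochberg adjustment over all clusters. The background level was the 95th percentile of olfactory and vomeronasal receptor clusters. The fit was tested on simulated data. Members and lists were chosen with earlier results of these data known.

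Named were all members, up to 4 genes with the smallest unadjusted p of each of 17 other lists, the 6 genes most like the members in profile and the Y-linked genes of the label check. *Spi1*, *Itgb2*, *C4a* and the C1r and C1s genes are not covered by this rule and were picked once their values were known. Alternatives were a second quantile normalization, loess between arrays, a shared median, filters on intensity, array weights, an intensity trend in the prior, the methods' t-test, the replicate number as a block, covariates for Y-linked and choroid plexus signal, the mean of all clusters of a symbol and each array left out. The number of arrays limits the precision.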

Additional observations from a re-analysis of the deposited data

How the results depend on the processing

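Under all 18 alternatives with a test 0 of 8 members passed at an adjusted p under 0.05 and 0 were higher or lower at an unadjusted p under 0.05, by limma or by the methods' t-test. The smallest unadjusted p was 0.0636 from limma (*Aif1* without WT milk replicate 2). The filter at the median of all clusters left out *C4b*, *Trem2* and *Tyrobp*. The log2 fold changes of *C1qb* and *Tyrobp* stayed above 0 under every alternative that gave a value, with ranges of 0.14 to 0.34 and 0.12 to 0.55. The sign turned in 31 of the 157 values of all 8 members, each of them for one of the other 6, and the cause was not tested. The sign turned for *Itgam* with quantile normalization again (0.0060), for *Trem2* with a common median (0.0047), for *C1qa*, *C1qc* and *C4b* with array weights (-0.15, -0.10 and -0.062), for *C4b* and *Trem2* with the Y-linked signal in the fit (-0.10 and 0.075), and for *C1qa*, *C1qc*, *C4b* and *Trem2* with the choroid plexus signal in the fit (-0.043, -0.094, -0.26 and 0.048). It also turned for *C1qa*, *C1qc*, *C4b* and *Trem2* within the arrays with high Y-linked signal (-0.026, -0.14, -0.20 and 0.016) and for *Trem2*, *Aif1* and *Itgam* within those with low signal (0.12, 0.39 and 0.23). With each array left out in turn *C1qa* ran from -0.14 to 0.30, *C1qc* from -0.11 to 0.12, *C4b* from -0.13 to 0.33, *Trem2* from -0.10 to 0.087 and *Itgam* from -0.29 to 0.11.

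With 1 array left out the median of the measured members ran from -0.12 (without KO milk replicate 3) to 0.16 (without WT milk replicate 3), and it was 0.23 within the arrays with low Y-linked signal and -0.082 within those with high signal. The count of members whose groups did not overlap ran from 0 to 2 with 1 array left out, where 16.5% to 21.6% of all genes did not overlap, and was 4 within the arrays with high Y-linked signal (63.1% of all genes) and 3 within those with low signal (62% of all genes), since fewer arrays are compared there. With the replicate block 0 of 8 members passed, the median stayed at 0.054 and no call among the members changed, and the lowest unadjusted p was 0.205 (*Tyrobp*, limma). Deviations from the group means of same-numbered arrays correlated at 0.02, -0.13 and 0.02. No source used here says whether the numbers pair the arrays, and with 3 arrays a group these values cannot decide it. *Clec10a* did not keep an unadjusted p under 0.05 under the block (unadjusted p = 0.0617 from limma). Over all genes 284 were higher and 332 lower at an unadjusted p under 0.05, 476 and 512 with array weights, 99 and 229 with the filter at the background level, 72 and 179 with that at the median, 170 and 240 with the Y-linked signal, 158 and 198 with the choroid plexus signal and 465 and 733 without KO milk replicate 2, where 1 gene passed after adjustment.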
